A study of Mus musculus with 2 samples.

Results

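The genes of the AP-1 transcription factor and a few immediate early genes were examined on a pair of Affymetrix Mouse Genome arrays of embryonic cartilage. The 10 genes were Fos, Fosb, Fosl1, Fosl2, Jun, Junb, Jund, Egr1, Nr4a1 and Ier2. They were taken by name, through the platform annotation, and were chosen with earlier results of these data known. They were represented by 14 probe sets, each naming 1 gene alone, out of 45101 probe sets and 18194 named genes. Both arrays carried total RNA of growth cartilage, taken from C57BL/6J embryos of wild-type genotype at stage E17.5, and no treatment or mutation was involved. One array was labelled as round chondrocytes, the cells of the epiphyseal end of a growing long bone, and the other as columnar and hypertrophic chondrocytes, the cells they later become. RNA of 3 portions of cartilage plate was mixed for each array, so that each group was 1 array, no spread between animals was measured and no test was possible.

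AP-1 is a dimer of a FOS protein with a JUN protein, or of a pair of JUN proteins, held together by a leucine zipper. Together with EGR1, NR4A1 and IER2, several of its subunits belong to the immediate early genes, whose transcription starts within minutes of a growth factor, stress or mechanical stimulus and does not require new protein synthesis. In the skeleton, AP-1 is known for its role in chondrocyte maturation and in the bone cells derived from the same precursors, and the removal or overproduction of FOS proteins disturbs cartilage and bone. The comparison addressed whether these genes are expressed in the growth plate before birth and whether their RNA differs between the round zone and the columnar and hypertrophic zones.

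Signals were linear MAS5 values, the output of the Affymetrix algorithm that combines the probes of a probe set into 1 number. A signal of 100.5 served as the floor, the 95th percentile of the probe sets for chemosensory receptors, which cartilage should not express. Each difference is a log2 value of the columnar/hypertrophic array minus the round array, and a negative difference is a higher signal in the round zone. The median signals of the arrays were 128 (round) and 105 (columnar/hypertrophic). The portions were enriched in the named cells, so other cells can be present. Signals of different probe sets are not compared with each other. In bulk RNA, fewer expressing cells and less RNA per cell cannot be told apart.

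The genes did not move as a group. Egr1, a zinc finger factor gene, fell in the columnar/hypertrophic sample by a factor of at least 6.95, and Nr4a1, an orphan nuclear receptor gene, was lower there by 2.45-fold. The 4 FOS and JUN genes with a signal above the floor, Fos, Fosl2, Jun and Jund, were all within 2-fold, and so was Ier2. The remaining genes, Fosb, Fosl1 and Junb, were under the floor on both arrays. Thus, 7 of the 10 genes gave a difference, of which 2 fell and 0 rose by 2-fold or more. Over all 11704 genes above the floor on at least 1 array, 6.37% fell and 4.31% rose by this much. The median difference of the 7 genes was -0.12 beside -0.05 over all genes, and it was Jun's own value. In 3 other scalings between the arrays it was 0.16 (equal medians), 0.14 (quantile normalization) and 0.04 (lowess), beside medians over all genes of 0.22, -0.0032 and -0.03.

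**Figure D1:**
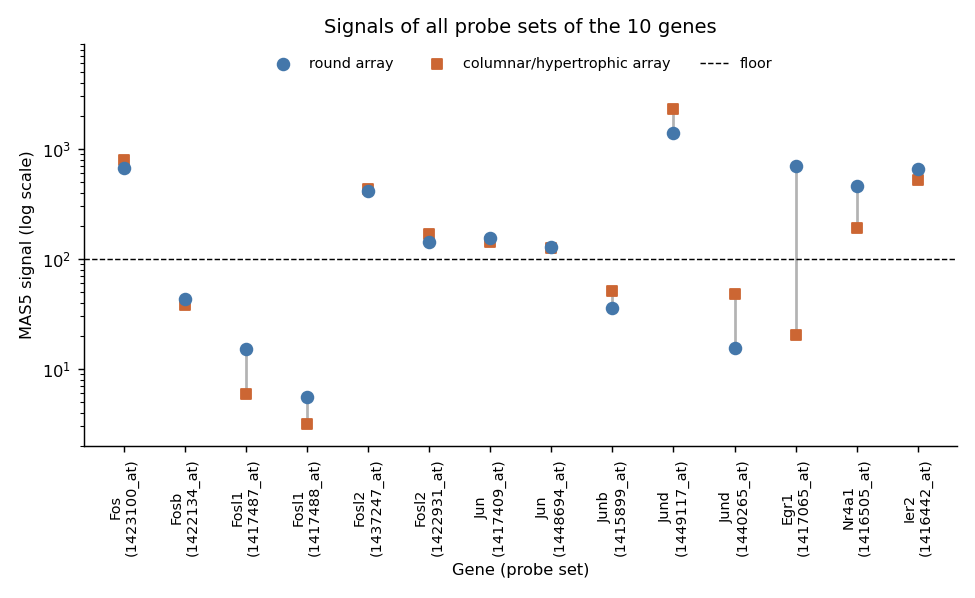
MAS5 signal (vertical, log scale) of each of the 14 probe sets of the 10 genes (horizontal) in the round sample (circles) and in the columnar/hypertrophic sample (squares), with a dashed line at the floor (100.5) and no replicates. Egr1 drops from 699 to 20.3, Nr4a1 from 465 to 189, and the probe sets of Fosb, Fosl1 and Junb lie under the floor on both arrays.

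FOS proteins dimerise with JUN proteins but not with each other, and carry much of the activation strength of AP-1. Fos had a signal of 666 in the round zone and 792 in the columnar/hypertrophic zone, a difference of 0.25 (1.19-fold). Both values were well over the floor, at 6.62 and 7.88 times its level. Fosl2, which encodes FRA-2, a FOS protein known for its role in chondrocytes and osteoblasts, had 417 and 435 by its brightest probe set (0.06) and 143 and 167 by its second (0.23). The probe sets gave the same order of arrays, with differences smaller than the technical spread given later. Fosb had signals of 43.5 and 38.4. Fosl1, which encodes FRA-1, had 15.2 and 5.92 by 1 probe set and 5.55 and 3.14 by the other. All of these lay under the floor, so that neither Fosb nor Fosl1 was detectable in either zone and no difference was taken from them.

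JUN proteins are the partners that allow AP-1 to bind DNA, and they can also pair among themselves. Jun had 155 and 142 by 1 probe set (-0.12) and 130 and 127 by the other (-0.04), values between 1.26 and 1.54 times the floor. Jun had no settled direction, since its small difference became 0.16, 0.14 and 0.04 in the 3 other scalings. Junb, often an opponent of JUN in growth control, had 35.7 and 51.5, under the floor on both arrays. Jund, the family member that many resting cells express steadily, had 1383 and 2290, and was thus 1.66-fold higher in the columnar/hypertrophic sample. It was the highest difference among the 7 genes (0.73), and 8.24% of all genes had a difference as high. The second Jund probe set read 15.7 and 48.2, under the floor on both arrays, and gave no second value. The Jund difference lay between 0.68 and 1.01 over the 4 scalings and reached 2-fold with equal medians.

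Egr1, a factor induced through growth factor signalling and serum response factor, had a signal of 699 in the round zone and 20.3 in the columnar/hypertrophic zone. Its round signal was 6.95 times the floor, and its other signal was 0.202 times the floor. The fold is therefore a bound, at least 6.95-fold, and it moved with the floor, from -3.09 with the floor at the 90th percentile to -2.26 at the 99th. Of 4776 genes with a round signal within 2-fold of that of Egr1 (349 to 1398), 47 (0.984%) did not reach the floor in the columnar/hypertrophic sample. Egr1 was measured by 1 probe set, so this difference had no second probe set beside it.

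Nr4a1, also known as Nur77, had 465 and 189, both over the floor, a difference of -1.29. Of all genes, 396 (3.38%) had a difference as low or lower. It was measured by 1 probe set and kept its 2-fold difference in all 8 alternatives of scaling, floor and probe set. With 1 probe set and both signals over each floor percentile used, the choices of probe set and floor percentile could not change this difference. In the alternatives that could, the other scalings and no floor with 16 added, the difference lay between -1.23 and -1.01. Ier2, a short-lived nuclear protein gene of the immediate early class, had 661 and 527, a difference of -0.33 that became -0.05 with equal medians.

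**Figure D2:**
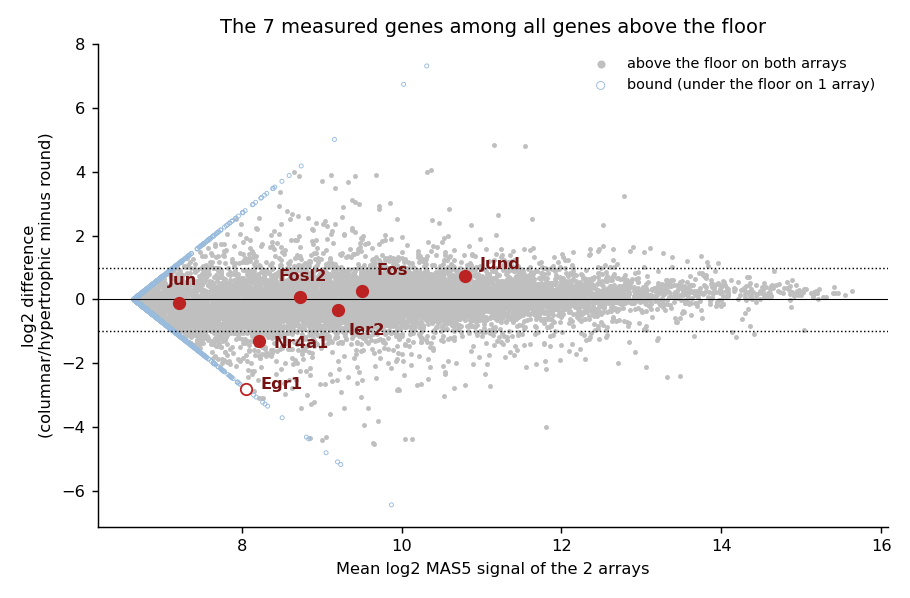
Log2 difference (vertical, columnar/hypertrophic minus round) against mean log2 signal of the arrays (horizontal) for all 11704 genes above the floor on at least 1 array, 1 point per gene, with the 7 genes in red, open points for bounds and dotted lines at 2-fold. Egr1 (a bound of -2.80) and Nr4a1 (-1.29) lie under the lower dotted line, while Fos, Fosl2, Jun, Jund and Ier2 lie between the lines.

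A technical measure was available from genes with several probe sets. In 4827 genes with several probe sets that passed the floor in both samples, the SD of the log2 differences within a gene was 0.367. It was 0.389 for the 2110 genes whose brightest probe set had a mean signal under 1000, the range of these genes apart from Jund. The differences of Fos, Fosl2, Jun and Ier2 were smaller than this SD, and those of Jund, Nr4a1 and Egr1 larger. This spread is that between probe sets on the same arrays, and it says nothing about the spread between embryos.

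The 250 bases before the start of transcription are shown for Nr4a1, which differed between the zones, and for Fos and Jun, which were within 2-fold, because these stretches hold elements of the AP-1 and CRE type by which immediate early genes respond to AP-1 and CREB proteins. They were read from RefSeq's GRCm38.p6 table, which gave a promoter for 7 of the 10 genes, those other than Fosl1, Egr1 and Ier2. The sequences run 5′ to 3′ on the strand of the gene, at chr15:101266596-101266845 (+ strand) for Nr4a1, chr12:85473640-85473889 (+ strand) for Fos and chr4:95052223-95052472 (- strand) for Jun. Capitals mark matches, on either strand, to the motifs named after them.
Nr4a1: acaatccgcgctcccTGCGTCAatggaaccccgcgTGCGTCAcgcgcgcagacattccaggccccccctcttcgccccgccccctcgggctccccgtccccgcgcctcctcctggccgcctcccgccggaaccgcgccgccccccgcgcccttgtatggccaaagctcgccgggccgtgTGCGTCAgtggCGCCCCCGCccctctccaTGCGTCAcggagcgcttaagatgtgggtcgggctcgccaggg
Fos: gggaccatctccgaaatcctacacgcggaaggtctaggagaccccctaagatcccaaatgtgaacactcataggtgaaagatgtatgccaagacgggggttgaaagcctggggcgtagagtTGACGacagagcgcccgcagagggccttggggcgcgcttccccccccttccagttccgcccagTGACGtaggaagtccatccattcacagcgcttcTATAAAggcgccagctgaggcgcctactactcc
Jun: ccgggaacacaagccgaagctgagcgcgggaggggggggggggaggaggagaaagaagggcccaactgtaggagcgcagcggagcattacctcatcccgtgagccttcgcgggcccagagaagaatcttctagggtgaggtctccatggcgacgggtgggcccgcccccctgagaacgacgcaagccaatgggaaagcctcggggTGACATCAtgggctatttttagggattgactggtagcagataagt

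The Nr4a1 stretch held 4 copies of the AP-1-like element TGCGTCA, which begin 235, 215, 71 and 42 bases before the start. Each copy also matched the shorter CRE half-site TGACG on the opposite strand, which it contains. Of 32851 promoters in the table, 574 (1.75%) held TGCGTCA at least once. Nr4a1's alone held at least 4 copies, but 4 was its own count, so this does not measure how unusual its promoter is. A match to the EGR motif GCGGGGGCG lay 60 to 52 bases before the Nr4a1 start, and the same motif was present 79 to 71 bases before the start of Fosl2 and 50 to 42 bases before that of Fosb. It was found in 2.57% of all promoters. In Fos, TGACG began at 129 and 66 bases and TATAAA at 33 bases before the start. TGACG was common, with 17.8% of all promoters, and TATAAA was present in 12.4%. In Jun, the AP-1 variant TGACATCA began 45 bases before the start (2.93% of all promoters). Fosb had 1 TGCGTCA and Junb 1 TGACG.

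The consensus CRE TGACGTCA (1.55% of all promoters), the consensus AP-1 site TGAGTCA (4.46%), the EGR variant GCGTGGGCG (0.536%) and the CArG box bound by serum response factor (1.47%) had no match in these 7 windows. The motifs with matches other than the EGR motif were chosen after the sequences were read, and a match is a description of letters only. Genes with a given motif could be set beside all 9520 genes with a promoter and a signal above the floor, of which 6.24% fell and 4.14% rose by 2-fold or more. Among 333 genes with TGCGTCA, 4.80% fell by 2-fold or more, and among 550 genes with GCGGGGGCG, 7.82%. Among 349 genes with TGAGTCA, 7.45% fell and 5.16% rose by as much.

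The close relatives of Egr1 and Nr4a1 were then compared with them. Egr3 had 138 on the round array and 63.5, under the floor, on the other, at least 1.37-fold lower. Egr2 (20.5 and 17.1) and Egr4 (41.7 and 44.7) were under the floor on both. Nr4a2, the orphan receptor NURR1, had 662 and 286 by its brightest probe set, a 2.32-fold fall. It went below 2-fold with equal medians and when its probe sets were averaged. Of its further probe sets, 3 passed the floor, with -0.73, -0.82 and a bound of -0.96, and the remaining ones were under it in both zones. Nr4a3 did not reach the floor in either zone (16.5 and 20.4). Thus, Nr4a1 and Nr4a2 had the same direction in all 4 scalings, and of the EGR genes Egr1 and Egr3 alone passed the floor in the round zone. Nab1 and Nab2, which encode corepressors of EGR proteins, differed by 0.58 and -0.52.

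A wider set of 53 immediate early genes was described by counts. Of these, 44 were above the floor, 8 (18.2%) fell and 5 (11.4%) rose by 2-fold or more from round to columnar/hypertrophic, beside 6.37% and 4.31% of all genes. The numbers were 4 lower and 7 higher with equal medians, beside 3.66% and 8.33% of all genes. That scaling added 0.28 to every difference that was not a bound. The median was -0.15, with 25 genes under 0 and 19 over it, and it became 0.13 with equal medians. The genes therefore lay on both sides, as the members did.

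Among the 17 transcription factor genes of this set, 3 (17.6%) fell and 4 (23.5%) rose by 2-fold or more, beside 6.37% and 4.31% of all genes. Those that fell were Nr4a2, Maff, a small MAF protein gene (267 to 27.3, at least 2.66-fold), and Irf1, an interferon response factor gene (719 to 338, 2.13-fold). On the other side, Myc, a driver of cell growth and division, had 975 and 2494 (2.56-fold higher) and Klf2, a Krüppel-like factor gene, 628 and 1565 (2.49-fold). Id1, an inhibitor of basic helix-loop-helix factors, had 2646 and 5950 (2.25-fold), and Nfil3, a basic leucine zipper repressor gene, 137 and 282 (2.06-fold). In the alternatives, Myc, Klf2 and Id1 kept their 2-fold difference in all of those that gave a value, whereas Irf1 kept it in 4 of 7, and Nfil3 in 6, Nr4a2 in 6 and Maff in 7 of 8. Atf3, a stress-induced partner of JUN, was at or near the floor (62.7 and 123, a bound of at least 1.23-fold higher).

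Among the 27 signalling and growth genes, 5 (18.5%) fell and 1 (3.70%) rose by 2-fold or more, beside 6.37% and 4.31% of all genes. Arid5b, a chromatin regulator gene known in cartilage, had 584 and 171 (3.42-fold lower), but further probe sets gave -0.65 and a bound of -0.45. Zfp36l1, which encodes a protein that promotes mRNA decay, had 3968 and 1196 (3.32-fold lower, and 1.65-fold by its other probe set). Gadd45a, a DNA damage response gene, had 279 and 103, the latter close to the floor (2.71-fold lower), and kept 2-fold in 7 of 8 alternatives. Socs3, the feedback inhibitor gene of cytokine receptors, had 448 and 186 (2.40-fold), with larger bounds, at least 6.68-fold and at least 5.92-fold, from further probe sets. Plk2, a polo-like kinase gene, had 224 and 22.2 (at least 2.23-fold) and kept 2-fold in 5 of 8 alternatives. Sgk1, a serum- and glucocorticoid-induced kinase gene, was the gene that went the other way, with 217 and 639 (2.94-fold higher).

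**Figure D3:**
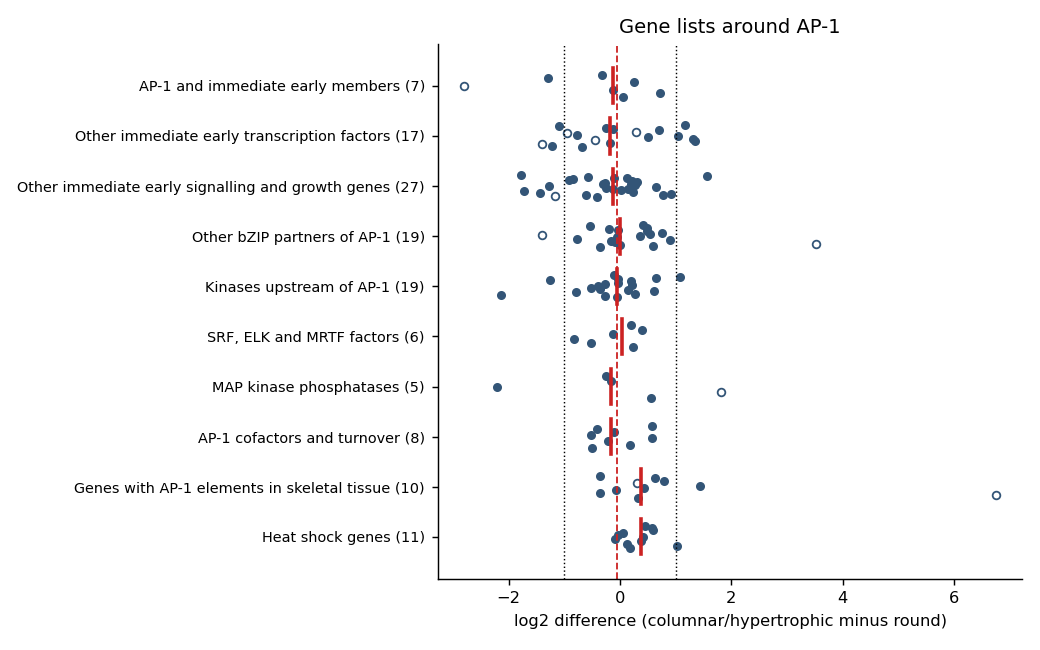
Log2 difference (horizontal, columnar/hypertrophic minus round) of the genes above the floor in 10 gene lists (vertical), 1 point per gene, with gene numbers bracketed, bounds drawn open, list medians as red bars, a red dashed line for the median of all genes and dotted lines at 2-fold. The members and both lists of other immediate early genes have points on either side of 0, the SRF, ELK and MRTF factors and the AP-1 cofactors all lie within 2-fold, and Col10a1 (6.75) and Batf3 (3.53) are the points farthest right.

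The genes of proteins that pair with or act on AP-1 were compared next. Of 19 other basic leucine zipper genes above the floor, 17 (89.5%) were within 2-fold, a share like the 89.3% of all genes, with a median of -0.01. Batf3, an AP-1 partner known from dendritic cells, went from 98.5, just under the floor, to 1158, a rise of at least 11.5-fold by its single probe set, and it lay between 2.99 and 3.57 on the log2 scale in the alternatives. Maff was the gene lower by 2-fold. Jdp2, a repressor that dimerises with JUN, had 1149 and 1144. All 8 genes of AP-1 and EGR cofactors and turnover were within 2-fold, between -0.52 and 0.58, as were most genes of the arrays.

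The kinases and factors through which stimuli reach these genes were also measured. Of the listed kinases 21 were represented by a probe set naming 1 gene, the others were not analysed here, and 19 were above the floor, with a median of -0.05. Mapk13, a p38 kinase gene, fell 4.37-fold (446 to 102, close to the floor), and Map3k1, an upstream activator gene of the JNK pathway, 2.38-fold lower (2.94-fold by its other probe set). Rps6ka5, which encodes the nuclear kinase MSK1, was 2.12-fold higher (290 to 614), and 2.84-fold by another probe set. The 6 genes of serum response factor, its ELK partners and the MRTF coactivators were within 2-fold, as 89.3% of all genes were, with Srf at 387 and 441 (0.19). Elk3 was the lowest of them (-0.82, and -0.90 and -0.93 by other probe sets).

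Phosphatases that inactivate MAP kinases were above the floor in 5 of 10 cases. Dusp6, a cytosolic MAP kinase phosphatase gene, had 582 and 126 (4.61-fold lower). Dusp9 had 38.2 and 355, a rise of at least 3.53-fold, and further probe sets gave bounds in the same direction, at least 2.74-fold and 3.24-fold. Dusp1, itself an immediate early gene, had 500 and 421 (-0.25).

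Genes with AP-1 elements that are known in skeletal tissue were examined as possible targets, of which 10 of 17 represented were above the floor. Of these, 2 rose and 0 fell by 2-fold or more, beside 4.31% and 6.37% of all genes, and the median was 0.38 beside -0.05. They were Col10a1, the collagen gene that itself marks the hypertrophic zone (24.2 to 10818, at least 108-fold), and Vim, encoding vimentin (6011 to 16367, 2.72-fold, and 2.46-fold and 1.99-fold by other probe sets). The matrix protease genes Mmp3, Mmp9, Mmp10 and Mmp13 were under the floor on both arrays. Heat shock genes, which respond to handling and temperature, were also measured because immediate early genes can be induced while tissue is dissected. Of 11 above the floor, 9 were higher in the columnar/hypertrophic sample, where 45.1% of all genes were, with a median of 0.37 beside -0.05. Past 2-fold was 1, against 4.31% of all genes, the mitochondrial chaperone gene Hspd1 (2.03-fold). Its difference lay between 0.85 and 1.30 over the 4 scalings and kept 2-fold in 6 of 8 alternatives. The part of dissection in the signals of Fos, Egr1 or the others was not tested.

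Other cell types contribute immediate early RNA too, and their markers were read on the same arrays. The chondrocyte markers were abundant on both, with a summed signal of 239469 and 298893 for 8 genes. In the hypertrophic list 6 of 6 were higher on the columnar/hypertrophic array, and in the round and joint list 6 of 6 were lower. These lists were chosen with earlier results of these data known, so the counts do not test the labels. Most markers of perichondrium, fibroblasts and tendon moved in the same direction as Egr1 and Nr4a1. Of 12, 9 were above the floor on the round array and 8 on the other array, and the summed signal was 108326 and 52875. Of the 9, 8 were lower and 1 higher on the columnar/hypertrophic array. Among them, Col1a1 differed by -1.26, Col3a1 by -2.39, Dcn by -2.42 and Postn by -3.60, while Scx, Dpt and Thy1 were under the floor in both zones. Twist1 (-0.75) was lower by less than 2-fold, and so was Col1a2 by its brightest probe set (-0.85). Further Col1a2 probe sets were lower by more than 2-fold (-1.63 and -1.98). Lum, with a large part of both sums, went the other way (22381 to 25256, 0.17). Osteoclast markers summed to 1034 and 613, with Ctsk alone above the floor, and leukocyte markers to 1024 and 836, with 4 and 3 of 8 above the floor and Ptprc under it on both. Among these, Laptm5 went from 466 to 234 (-0.99) and Lyz2 from 130 to 293 (1.17). Skeletal muscle markers summed to 680 and 589, and 7 of 8 were higher in the round zone. Des went from 258 to 29.1, at least 2.56-fold lower and in the direction of Egr1, Tnnt3 went from 63.4 to 429, at least 4.26-fold higher, and Myh3 and Myog were under the floor. Epidermal markers summed to 521 and 478, with 1 and 2 of 4 above the floor. All 6 endothelial markers and the 3 erythroid markers represented were under the floor on both arrays. Osteoblast markers summed to 222 and 2153, mostly through Sp7 (170 to 1940), while Dmp1 was under the floor on both. The part of fibrous tissue and of these other cells in the differences of Egr1 and Nr4a1 was not tested.

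**Figure D4:**
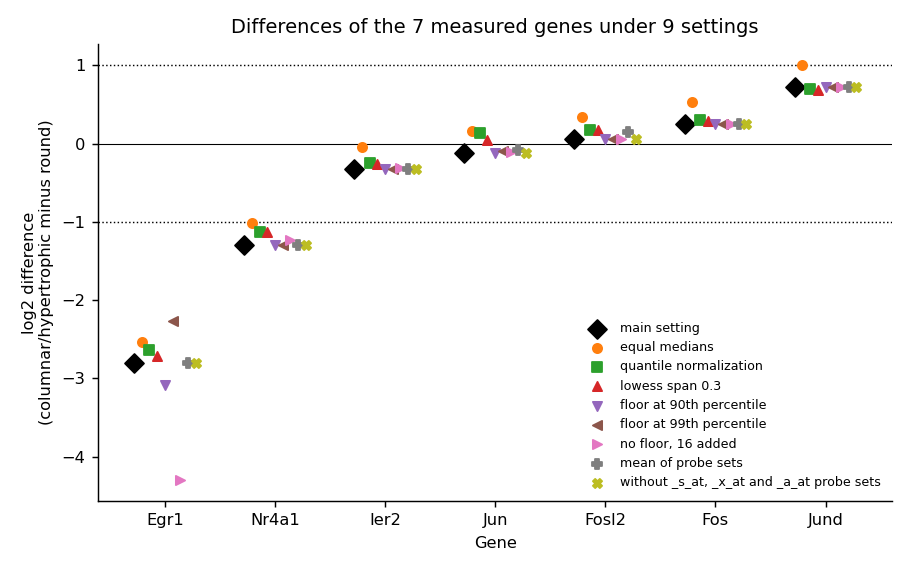
Log2 difference (vertical, columnar/hypertrophic minus round) of the 7 genes above the floor (horizontal), with the reported value as a black diamond, 8 alternative settings as coloured symbols and dotted lines at 2-fold. Egr1 and Nr4a1 stay under the lower line throughout, Jund reaches 1.01 with equal medians, and Jun lies on both sides of 0.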

How the data were processed

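Total RNA of wild-type cartilage was labelled with biotin and hybridised to 2 Affymetrix Mouse Genome arrays, 1 per group. The deposited values are MAS5 signals, linear intensities for 45101 probe sets. MAS5 is named in the submitters' processing notes (its version is not given in the sources used here), whereas the study's methods name RMA; the values were linear with a trimmed mean of 500.0 on both arrays, as MAS5 scaling gives. Gene names came from the platform's annotation: 34958 had 1 gene symbol and were used, of which 34754 matched RefSeq by Entrez identifier for current names, and 932 had several. The number of arrays limits the precision, and the arrays name no genome build.

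Signals under the floor (95th percentile of 87 chemosensory receptor probe sets) were raised to it, and the brightest probe set stood for each gene. Genes were counted at 2-fold, without any test. Where 1 of the signals was raised, the difference is a bound. Motifs were searched on both strands of the 250 bases before the start. The counting was tested on simulated data. Python 3.11.15, pandas 2.3.3 and statsmodels 0.14.6 were used. The members and the 21 gene lists were chosen with earlier results of these data known. Genes named from the lists were the largest past 2-fold, up to 6 per list; Nfil3, Egr2 to Egr4, Nr4a3, Nab1, Nab2, Atf3, Jdp2, Srf, Elk3, Dusp1 and the MMP genes were picked from the lists with their values in view.

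Alternatives were 3 other scalings, 3 treatments of the floor (90th and 99th percentiles, and none with 16 added), 2 choices of probe set and a 1.5-fold threshold.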

Additional observations from a re-analysis of the deposited data

How the results depend on the processing

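The 2 members lower by at least 2-fold, Egr1 and Nr4a1, were the same genes under all 9 alternatives. The 1.5-fold threshold and the 2 choices of probe set could not have removed them, because each gene had 1 probe set. The other floor percentiles could not have removed Nr4a1 either, because both its signals were over each of these floors. The count of members at least 2-fold higher was 0 but became 1, Jund, with equal medians, where 8.33% of all genes were higher. The count was also 1 with the 1.5-fold threshold, at which 11.7% of all genes were higher and 15.8% lower. Equal medians moved the median of all genes by 0.28, and lower genes then made up 30.5% of all genes past 2-fold, in place of 59.6%. In the wider immediate early lists, 8 genes at least 2-fold lower became 4 with equal medians and 5 with the 99th-percentile floor. Of all genes, 3.66% and 5.54% were lower by this much in these settings. The 5 genes at least 2-fold higher became 3 without probe sets that can match several transcripts, where 4.31% of all genes were higher. The bound of Egr1 was -2.26 with the 99th-percentile floor. With no floor and 16 added its difference was -4.30, which is not a bound and rests on a signal far under the floor. Over the 7 members and 8 alternatives, 54 of 56 values moved by less than the SD between probe sets of a gene, and the exceptions were these values of Egr1. Many of the values could not move, because the gene had 1 probe set or both its signals were over each floor. With 1 array per group no replicate could be left out, and no paired analysis was possible because each group held 1 array. A gene under the floor on both arrays gave no difference.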
